A study of Homo sapiens with 6 samples.

Results

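TXNIP, ARRDC4, ARRDC3, MLXIP, MLXIPL and MLX make up a glucose-sensing network, and their mRNA was followed in kidney tubular epithelial cells exposed to oxidized LDL. Members were chosen by name, as the genes whose symbol in the deposited table equals 1 of these 6, and all 6 were found among 58825 genes. Of these, 5 passed the minimum level for testing (an average of 0.1 FPKM, the fragment count scaled to transcript length and library size) and MLXIPL did not.

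The cells were HK-2, an immortalized line of human proximal tubule origin that is widely used as a stand-in for tubular epithelium. The 6 libraries of poly(A) RNA fell into 3 Control libraries, labelled untreated with no time given, and 3 OX-LDL libraries from cells given 25 μg/mL oxidized LDL for 48 h. All 6 came from this single line, which was immortalized with papillomavirus genes and for which the labels name no further genetic change, and the study's methods starved the cells in low serum before OX-LDL was added. The study's methods say that cell experiments were repeated independently, but the labels do not tie each library to a separate culture, so p-values measure the spread between these libraries, which may be technical.

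MondoA (encoded by MLXIP) and its paralog ChREBP (encoded by MLXIPL) are transcription factors that respond to glucose 6-phosphate and related sugar phosphates. Each binds DNA as a heterodimer with MLX, at carbohydrate response elements made of paired E-box-like half-sites. TXNIP and ARRDC4 are the best known targets of MondoA, and both encode alpha-arrestins that lower glucose uptake, TXNIP by driving internalization of glucose transporters and also by binding thioredoxin. ARRDC3 is a further alpha-arrestin, known for lowering beta-adrenergic receptor signalling and for directing cargo to NEDD4-family ubiquitin ligases. In the kidney, TXNIP is best known as a gene induced by high glucose in diabetic disease.

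The promoters of the members are shown because MondoA and MLX act through short DNA motifs close to the start of transcription. RefSeq start sites on GRCh38.p14 were found for 6 of 6 members, giving 8 windows of 250 bases before a start. Both strands were searched for an E-box (CACGTG), for paired half-sites (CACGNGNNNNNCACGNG, where N is any base) and for a CCAAT box (CCAAT). The letters of an E-box also satisfy a half-site, so a pair may contain an E-box. In the 3 windows with an E-box or paired half-sites, the capitals mark that match, and the window of ARRDC3, which held neither, is given for comparison. The windows are chr1:145996580-145996829 on the minus strand for TXNIP, chr15:97960453-97960702 on the plus strand for ARRDC4, chr17:42566850-42567099 on the plus strand for MLX and chr5:91383318-91383567 on the minus strand for ARRDC3, each written 5′ to 3′ on the strand of its gene.
TXNIP: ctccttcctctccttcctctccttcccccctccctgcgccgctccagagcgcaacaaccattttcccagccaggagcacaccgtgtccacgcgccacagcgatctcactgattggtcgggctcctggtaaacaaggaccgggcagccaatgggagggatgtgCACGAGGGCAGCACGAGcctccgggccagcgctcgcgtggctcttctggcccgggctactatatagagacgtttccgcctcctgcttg
ARRDC4: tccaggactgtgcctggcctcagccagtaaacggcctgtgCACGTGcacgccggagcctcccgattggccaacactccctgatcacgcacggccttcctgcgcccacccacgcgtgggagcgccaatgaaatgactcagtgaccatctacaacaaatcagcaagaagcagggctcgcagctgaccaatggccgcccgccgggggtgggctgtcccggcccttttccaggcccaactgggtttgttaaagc
MLX: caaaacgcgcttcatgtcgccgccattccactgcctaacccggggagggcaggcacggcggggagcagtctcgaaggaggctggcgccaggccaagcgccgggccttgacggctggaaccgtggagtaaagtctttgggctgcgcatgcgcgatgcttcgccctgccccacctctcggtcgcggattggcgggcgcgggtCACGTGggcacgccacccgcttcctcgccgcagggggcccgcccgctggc
ARRDC3: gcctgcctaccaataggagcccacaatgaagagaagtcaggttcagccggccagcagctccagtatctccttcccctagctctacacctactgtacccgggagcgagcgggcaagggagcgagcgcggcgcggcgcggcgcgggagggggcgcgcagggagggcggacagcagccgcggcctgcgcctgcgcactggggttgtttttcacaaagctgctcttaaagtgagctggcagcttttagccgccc

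The TXNIP window held paired half-sites, 88 to 72 bases before the start. Such a pair was present in 16 of 35116 promoter windows of the same length (0.0456%). The ARRDC4 window held an E-box 210 to 205 bases before the start, and the MLX window held one 50 to 45 bases before its start. An E-box was present in 6.34% of all windows. Neither motif was found in the windows of MLXIP or MLXIPL, in either window of ARRDC3 or in the window of a second TXNIP start that lies inside the gene. CCAAT boxes were more common, in 32.0% of all windows, and the windows shown held 2 for TXNIP, 3 for ARRDC4, 1 for MLX and 1 for ARRDC3, none of which overlapped the capitals. These matches describe the letters of the windows and do not show that a factor was bound.

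The libraries held 62561347 to 76797607 deposited counts, with about 4 counts for each read pair. Testing used edgeR's quasi-likelihood test with Benjamini-Hochberg adjustment over 19510 genes, and a gene was called when its adjusted p was under 0.05. Of the 15 tubular epithelial markers, 8 averaged 1 FPKM or more, among them KRT8, KRT18, PAX8 and GGT1, and the list summed to 186 to 211 FPKM in Control and 258 to 295 FPKM in OX-LDL. LRP2 (megalin), which defines the proximal tubule in tissue, was at 0 in every library. Endothelial markers summed to at most 0.122 FPKM and markers of podocytes and the distal tubule to at most 0.0232 FPKM in any library. Leukocyte markers summed to 3.13 to 7.75 FPKM in Control and 9.19 to 14.1 FPKM in OX-LDL, nearly all of it CD68, with MS4A1 at 0. Fibroblast and pericyte markers summed to 10.1 to 11.99 FPKM in Control and 8.75 to 14.1 FPKM in OX-LDL, mostly LUM, with DCN at 0. The part of these markers in the results for the members was not tested.

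OX-LDL-treated cells held more ARRDC4 and ARRDC3 mRNA and less MLX mRNA than Control cells. TXNIP was also higher in every OX-LDL library than in every Control library, but its difference did not pass the adjusted threshold. MLXIP was nearly equal in both groups, and MLXIPL was close to undetectable. In all, 3 of the 5 tested members were called, against a background of 15.3% of all genes tested, with 2 higher (background 7.91%) and 1 lower (7.42%). Only MLX, at over 2-fold lower, also passed a fold limit of 2, as did 3.91% of all genes tested. The groups did not overlap for 4 of the 5 (background 37.2%), with 3 higher (16.8%) and 1 lower (20.5%), and the same 4 had an unadjusted p under 0.05 in edgeR's test (background 30.4%). In bulk RNA, a change in the number of cells that express a gene and a change in mRNA per cell cannot be told apart.

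**Figure D1:**
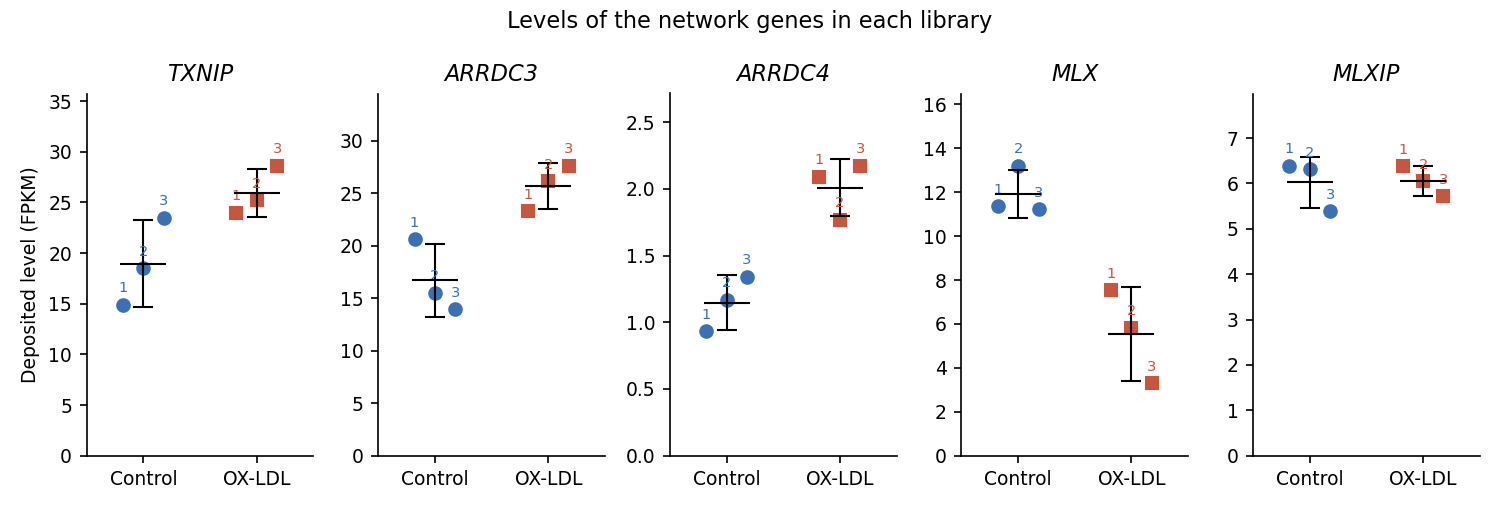
Deposited level (FPKM, linear axis from 0) of TXNIP, ARRDC3, ARRDC4, MLX and MLXIP in each library, with Control as blue circles, OX-LDL as red squares, library numbers beside the points, and black bars for the mean and SD of 3 libraries. The groups separate upward in OX-LDL for TXNIP, ARRDC3 and ARRDC4 and downward for MLX, while the MLXIP groups overlap.

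TXNIP (ENSG00000265972, chr1:145992435-145996600, minus strand) encodes thioredoxin-interacting protein and was among the more abundant mRNAs, at the 91.5th percentile of level among genes tested. Its level was 14.9, 18.5 and 23.47 FPKM in the Control libraries 1, 2 and 3, and 23.97, 25.2 and 28.6 FPKM in the OX-LDL libraries 1, 2 and 3. Control library 3 lay just under the lowest OX-LDL library, so the groups touched without overlapping, and the spread was wider in Control. Control averaged 18.9 ± 4.31 FPKM and OX-LDL 25.9 ± 2.40 FPKM (SD, n = 3 each). The log2 fold change was 0.49 (SE 0.17), a fold of 1.40 with a 95% interval from 1.07 to 1.84. With an unadjusted p of 0.0223 and an adjusted p of 0.0986 in edgeR's quasi-likelihood test, TXNIP was not called. Without Control library 3 the log2 fold change was 0.67 and the adjusted p of edgeR's test was 0.0335, and DESeq2 gave an adjusted p of 0.0329 on all 6 libraries. DESeq2 called more genes in all, 4430 against 2991 in the reported fit. Over the 14 alternatives tried, the adjusted p of TXNIP ran from 0.0329 to 0.257, and its direction was upward in each.

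ARRDC4 (ENSG00000140450, chr15:97960703-97973833, plus strand), the paralog of TXNIP that shares its action on glucose uptake, rose by the largest factor of the members. It was expressed at a low level, 0.931, 1.17 and 1.34 FPKM in the Control libraries and 2.09, 1.77 and 2.17 FPKM in the OX-LDL libraries, numbered 1 to 3. Every OX-LDL library exceeded every Control library. These levels rest on 333 to 444 counts per library in Control and 627 to 800 in OX-LDL, at about 4 counts for each read pair. The mean went from 1.15 ± 0.206 to 2.01 ± 0.214 FPKM (SD, n = 3 each), and the log2 fold change was 0.84 (SE 0.18), a fold of 1.79 with a 95% interval from 1.33 to 2.41. The adjusted p of edgeR's quasi-likelihood test was 0.0255. The call was lost in 4 of the 6 fits without 1 library, where the adjusted p was 0.0658 without Control library 1, 0.0854 without Control library 2, 0.0834 without OX-LDL library 1 and 0.0937 without OX-LDL library 3 in edgeR's test, and the log2 fold change was 0.72 to 0.97 over all 6 fits.

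ARRDC3 (ENSG00000113369, chr5:91368631-91383317, minus strand), the third alpha-arrestin of the network, was nearly as abundant as TXNIP. Its level was 20.6, 15.5 and 13.9 FPKM in the Control libraries and 23.3, 26.1 and 27.6 FPKM in the OX-LDL libraries. Control library 1 was the highest of its group and OX-LDL library 1 the lowest of its group, and the groups did not overlap. The mean went from 16.7 ± 3.50 to 25.7 ± 2.20 FPKM (SD, n = 3 each), with a log2 fold change of 0.65 (SE 0.16), a fold of 1.57 with a 95% interval from 1.20 to 2.05. The adjusted p of edgeR's quasi-likelihood test was 0.0391. ARRDC3 stayed called only when Control library 1 was left out (adjusted p = 0.0150), and edgeR's adjusted p was 0.129 without Control library 2, 0.0912 without Control library 3, 0.0708 without OX-LDL library 1, 0.0774 without OX-LDL library 2 and 0.118 without OX-LDL library 3. The antisense gene ARRDC3-AS1 shares 2969 bases with ARRDC3 and was at 0.231 FPKM in Control against 0.214 FPKM in OX-LDL. Whether strand was used in counting is not given in the sources used here.

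Within each library, the ratios between the alpha-arrestins add a comparison that does not depend on library size. TXNIP over ARRDC4 was 16.0, 15.8 and 17.5 in Control and 11.5, 14.3 and 13.2 in OX-LDL, so no OX-LDL library reached the lowest Control ratio (16.4 ± 0.923 against 13.0 ± 1.42, SD, n = 3 each). TXNIP over ARRDC3 was 0.722, 1.19 and 1.68 in Control and 1.03, 0.966 and 1.04 in OX-LDL. Here the Control libraries spread on both sides of the OX-LDL libraries, because TXNIP was highest and ARRDC3 lowest in Control library 3, and the reverse held in Control library 1. ARRDC3 over ARRDC4 overlapped between the groups too, at 10.4 to 22.2 in Control and 11.1 to 14.8 in OX-LDL. With 3 libraries against 3, an exact permutation test of a ratio could not go below a two-sided p of 0.1, so the ratios are given as descriptions.

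MLX (ENSG00000108788, chr17:42567068-42573239, plus strand) encodes the obligate partner of MondoA and ChREBP, and it was the member that fell. Its level was 11.4, 13.2 and 11.2 FPKM in the Control libraries and 7.54, 5.83 and 3.29 FPKM in the OX-LDL libraries. The Control libraries lay close together, all 3 OX-LDL libraries were lower, and OX-LDL library 3 was the lowest. The mean went from 11.9 ± 1.10 to 5.55 ± 2.14 FPKM (SD, n = 3 each), with a log2 fold change of -1.07 (SE 0.27, 95% interval from -1.72 to -0.42), which is 2.10-fold lower. The adjusted p of edgeR's quasi-likelihood test was 0.0431. In edgeR's test the adjusted p was 0.0931 without Control library 1, 0.128 without Control library 2, 0.0856 without Control library 3 and 0.0854 without OX-LDL library 2, while the log2 fold change stayed between -1.35 and -0.80.

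MLX overlaps PSMC3IP, a gene on the opposite strand that encodes a meiotic recombination factor, over 925 bases. PSMC3IP was at 9.44 FPKM in Control against 7.10 FPKM in OX-LDL (log2 fold change -0.38, adjusted p = 0.0536 in edgeR's test). Of the 13 tested genes within 100 kb of MLX, 1 fell (background 7.42% of all genes tested) and 0 rose (7.91%). The gene that fell was COASY, which encodes coenzyme A synthase and ends 791 bases before MLX on the same strand. COASY went from 16.5 ± 0.451 to 9.93 ± 0.854 FPKM (SD, n = 3 each), with a log2 fold change of -0.70 and an adjusted p of 0.00478 in edgeR's test. Around TXNIP, 0 of 8 tested genes within 100 kb were called, around ARRDC3 0 of 3 and around MLXIP 0 of 7. Around MLXIPL, 1 of 7 tested genes rose (TBL2) and 2 fell (BAZ1B and BCL7B). For all of these neighbour counts, the background was 15.3% of genes tested called in either direction. COASY, PSMC3IP, TBL2, BAZ1B and BCL7B were singled out after their values had been seen. No gene within 100 kb of ARRDC4 passed the minimum level.

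MLXIP (ENSG00000175727, chr12:122078756-122147344, plus strand), which encodes MondoA itself, showed no detectable difference. Its level was 6.39, 6.32 and 5.38 FPKM in the Control libraries and 6.38, 6.05 and 5.72 FPKM in the OX-LDL libraries. The OX-LDL values all lay inside the range of the Control values. Control averaged 6.03 ± 0.559 FPKM and OX-LDL 6.05 ± 0.329 FPKM (SD, n = 3 each), and the log2 fold change was 0.04 (SE 0.09, adjusted p = 0.831 in edgeR's test). The 95% interval of the fold ran from 0.883 to 1.19. Without Control library 3, the lowest of its group, the log2 fold change was -0.04.

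The ratio of MLX to MLXIP mRNA did not overlap between the groups. As MLXIP was nearly equal in both, this ratio mostly restates the lower MLX level, and it was not tested. MLX over MLXIP was 1.78, 2.09 and 2.08 in the Control libraries and 1.18, 0.964 and 0.575 in the OX-LDL libraries (1.98 ± 0.177 against 0.907 ± 0.308, SD, n = 3 each). MLX mRNA exceeded MLXIP mRNA per length in every Control library, and in OX-LDL it did so only in library 1.

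**Figure D2:**
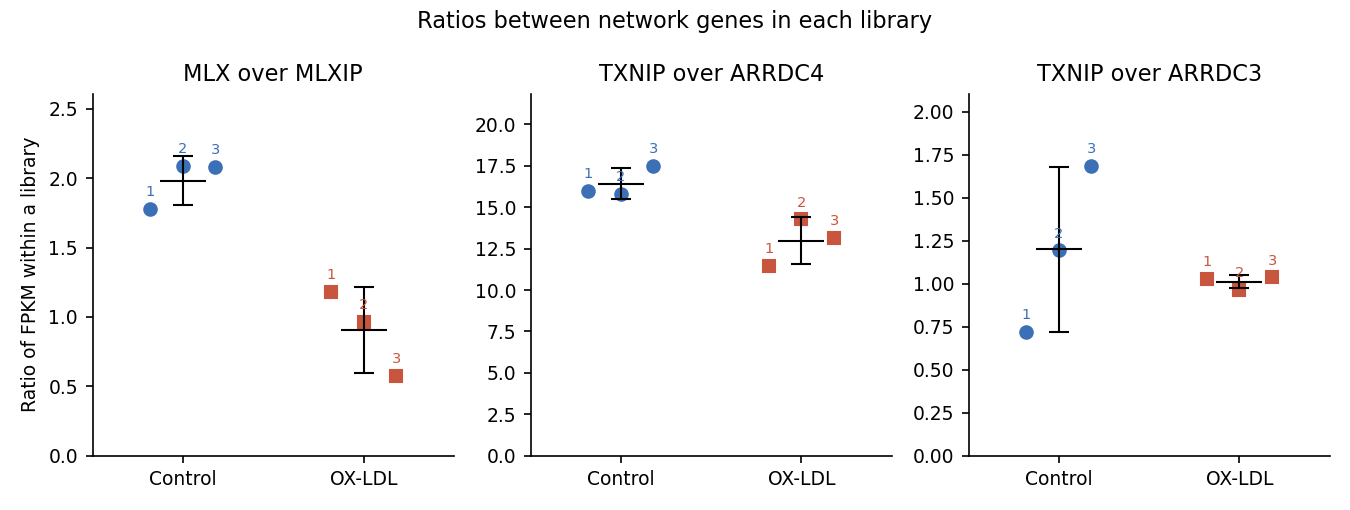
Ratio of FPKM values within each library (linear axis from 0) for MLX over MLXIP, TXNIP over ARRDC4 and TXNIP over ARRDC3, with Control as blue circles, OX-LDL as red squares, library numbers beside the points, and black bars for the mean and SD of 3 libraries. The groups separate for the ratio of MLX to MLXIP and for that of TXNIP to ARRDC4, and overlap for that of TXNIP to ARRDC3.

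MLXIPL (ENSG00000009950, chr7:73593194-73624540, minus strand), which encodes ChREBP, was counted 0, 16 and 0 times in the Control libraries, against 3, 14 and 0 times with OX-LDL. A library with 0 counts allows up to 12 counts, or 3 read pairs, which is 0.156 to 0.192 CPM (counts scaled to library size) at these depths and covers counting error only. MLXIPL was thus at or under this limit in 4 of the 6 libraries and just above it in the library numbered 2 of each group. No difference was detectable at this depth, and no fold is given.

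**Figure D3:**
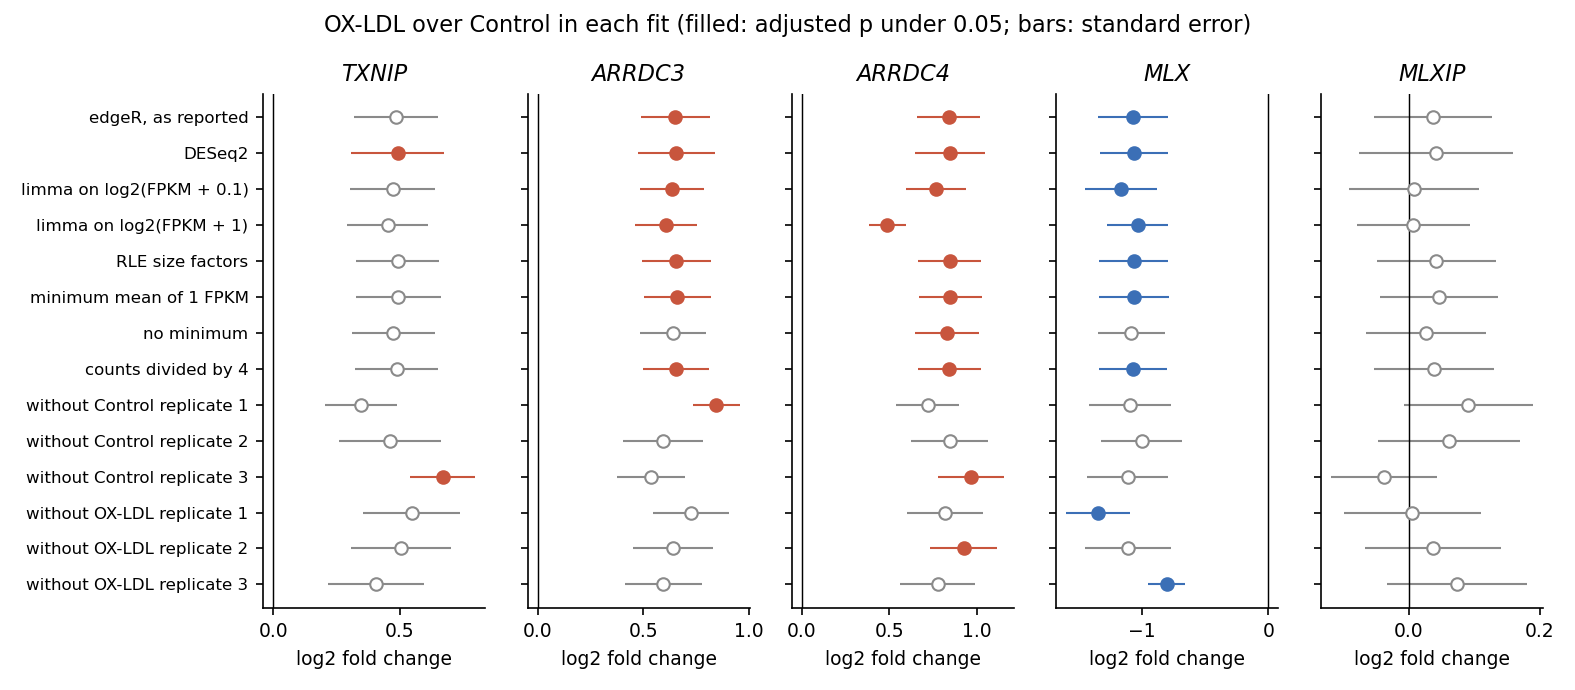
Log2 fold change of OX-LDL over Control (horizontal axis, with the standard error as bars) for each tested member under the reported edgeR fit and under other tools, scalings, minimum levels and fits without 1 library. Filled points had an adjusted p under 0.05, and every point for TXNIP, ARRDC3 and ARRDC4 lies above 0 and every point for MLX below 0, while those for MLXIP lie close to 0.

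The genes whose profile over the 6 libraries was most like that of a member were picked by the root mean square difference of log2 normalized CPM, each gene centred on its Control mean, over genes averaging 1 FPKM or more. The closest to TXNIP, of 12258 genes compared, were AC048341 (ENSG00000275180; 0.0938), PLEKHO2 (0.1003) and ENDOD1 (0.103). The closest to ARRDC4 were LINC02454 (0.0772), ADA (0.0971) and DPYSL3 (0.105). ADA encodes adenosine deaminase and DPYSL3 a cytoskeletal regulator of neurite growth. The members were not among each other's closest genes, but ranked nearer than most of the 12258 compared. In likeness to TXNIP, ARRDC4 ranked 1337 and ARRDC3 ranked 3771. In likeness to ARRDC4, TXNIP ranked 460 and ARRDC3 ranked 1278.

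Genes that act with the network were grouped into 10 lists of 102 genes in all, of which 83 could be tested. Among these, 21 rose and 8 fell, which is 34.9% called, against 15.3% of all genes tested and 21.4% of those averaging 1 FPKM or more. The lists were chosen with earlier results of these data known, so their share called is a description and not a test of the network. The shares of all genes are also the background for the counts of each list below. The median log2 fold change was 0.07 over the 83 genes and -0.00 over all genes tested. Of the 29 called genes, 12 were called in each of the 6 fits that leave out 1 library and 2 in none. The number called was 13 without Control library 2, 19 without Control library 3, 15 without OX-LDL library 1 and 14 without OX-LDL library 3. Another annotated gene overlaps 21 of the 29, so their counts may include reads of a neighbour.

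**Figure D4:**
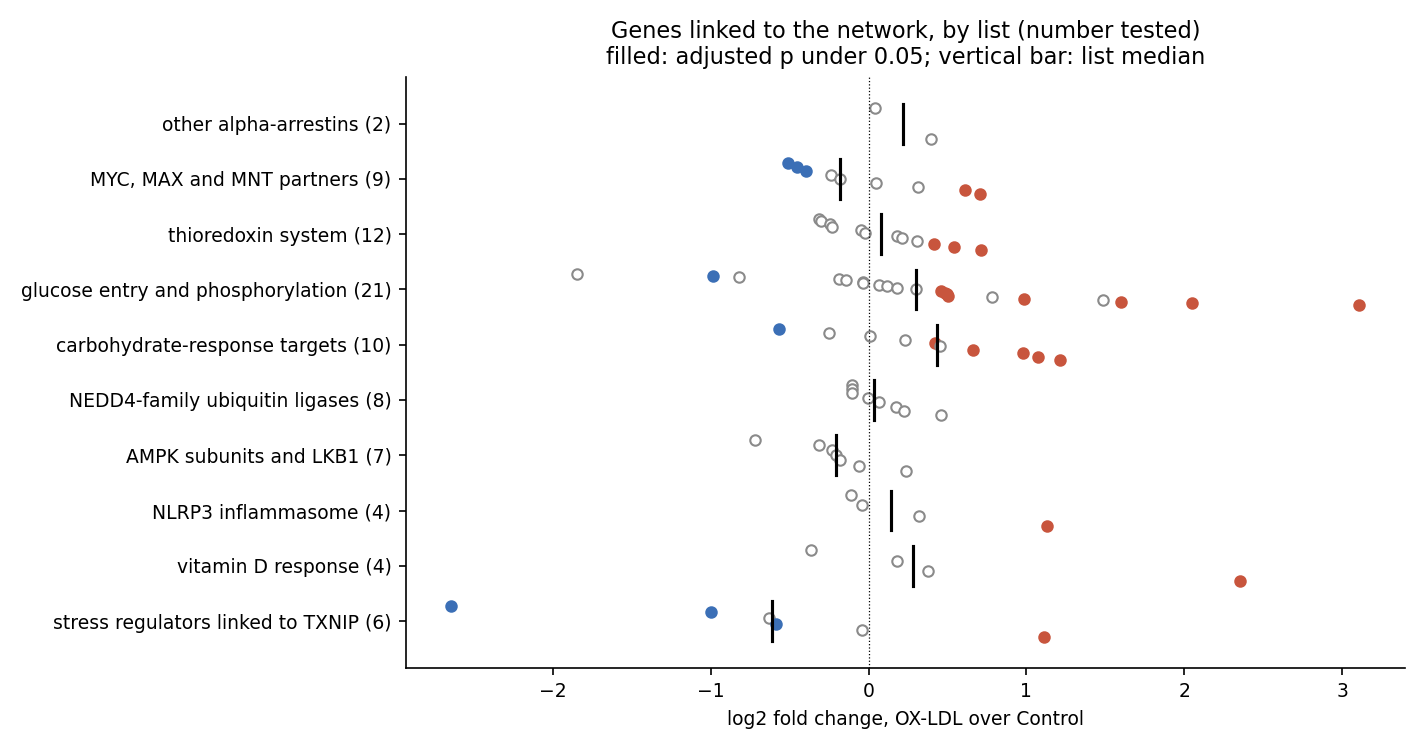
Log2 fold change of OX-LDL over Control (horizontal axis) for each tested gene of the 10 lists, with the number tested in parentheses. Filled points had an adjusted p under 0.05, red if higher and blue if lower, and black bars are the list medians, which run from -0.61 for the stress regulators to 0.44 for the carbohydrate-response targets.

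The other alpha-arrestins did not pass the test. ARRDC1 was at 2.73 FPKM in Control against 2.75 FPKM in OX-LDL (log2 fold change 0.04, adjusted p = 0.897 in edgeR's test), and ARRDC2 at 1.36 and 1.75 FPKM (0.40, adjusted p = 0.149). ARRDC5 had 0 counts in every library. Of the NEDD4-family ligases, which bind the PY motifs of alpha-arrestins, 0 of 8 tested genes were called, and the median log2 fold change was 0.03. ITCH, the ligase known to ubiquitinate TXNIP, was at 15.7 FPKM in Control against 14.3 FPKM in OX-LDL (log2 fold change -0.10, adjusted p = 0.726 in edgeR's test).

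The thioredoxin system, which TXNIP restrains, had 3 of 12 genes called higher and 0 called lower (median log2 fold change 0.08). That share, 25.0%, was near the 21.4% called among all genes averaging 1 FPKM or more. TXN, thioredoxin itself, was at 149, 166 and 179 FPKM in Control against 220, 252 and 230 FPKM in OX-LDL, with no overlap (log2 fold change 0.54, SE 0.09, adjusted p = 0.0119 in edgeR's test). TXNL1, a thioredoxin-like protein of the proteasome, rose from 4.47 to 7.19 FPKM (0.71, adjusted p = 0.00829). PRDX4, a peroxiredoxin of the endoplasmic reticulum, rose from 39.7 to 51.7 FPKM (0.41, adjusted p = 0.0466), but was called in only 1 of the 6 fits without 1 library, the one without Control library 3. TXNRD1, the reductase that recharges thioredoxin, was at 106 FPKM in Control against 88.8 FPKM in OX-LDL (-0.23, adjusted p = 0.363).

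MLX belongs to the wider family of MYC and MAX dimerization partners, in which 2 of 9 tested genes rose and 3 fell, with a median log2 fold change of -0.18. MAX, the partner of MYC, fell from 9.33 to 6.40 FPKM (log2 fold change -0.51, adjusted p = 0.0265 in edgeR's test), as did MGA, which builds repressor complexes with MAX, from 11.5 to 8.50 FPKM (-0.40, adjusted p = 0.0286) and MXI1, a repressor that competes with MYC for MAX, from 8.33 to 5.95 FPKM (-0.45, adjusted p = 0.0409). MXD4, a repressor that pairs with MAX, rose from 3.61 to 5.76 FPKM (0.71, adjusted p = 0.0113). MXD4 was called in all 6 fits without 1 library. MAX was called only without Control library 1, MXI1 only without Control library 1 or OX-LDL library 2, and MGA only without OX-LDL library 2 or 3. Their highest adjusted p in those fits was 0.0917, 0.131 and 0.0820 in turn. MNT, a repressor that can pair with MLX, was at 1.76 and 1.78 FPKM (0.05, adjusted p = 0.850). MYC varied widely between libraries of a group, from 0.986 to 24.7 FPKM in Control and from 0.978 to 16.1 FPKM in OX-LDL.

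Among genes of glucose entry and phosphorylation, the step that supplies the signal to MondoA, 8 of 21 tested genes rose and 1 fell, with a median log2 fold change of 0.30. SLC2A1, which encodes the widely expressed transporter GLUT1, rose from 49.5 to 68.6 FPKM (log2 fold change 0.50, adjusted p = 0.0169 in edgeR's test). SLC2A2, which encodes GLUT2 of the proximal tubule, was at 0.170, 0.107 and 0.178 FPKM in Control against 1.11, 1.59 and 1.20 FPKM in OX-LDL (3.11, adjusted p = 0.00223), a low level in both groups. PFKFB4, which sets the level of fructose 2,6-bisphosphate, rose from 1.24 to 5.05 FPKM (2.05, adjusted p = 0.00195), and the glycolytic isomerase gene GPI from 16.3 to 22.5 FPKM (0.50, adjusted p = 0.0163). HKDC1, a hexokinase-like gene, fell from 78.6 to 38.8 FPKM (-0.99, adjusted p = 0.00556). The hexokinase genes HK1 (29.6 to 39.9 FPKM, 0.46, adjusted p = 0.0444 in edgeR's test) and HK2 (2.11 to 4.08 FPKM, 0.98, adjusted p = 0.0439) rose. HK1 and HK2 were each called in only 2 of the 6 fits without 1 library. SLC2A2, PFKFB4 and HKDC1 were called in all 6 fits without 1 library, while SLC2A1 was lost without Control library 2 or OX-LDL library 1 or 3 (adjusted p at most 0.0647) and GPI without Control library 2 or 3 or OX-LDL library 3 (at most 0.0611).

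Carbohydrate-response targets, mostly lipogenic enzymes that ChREBP and MLX can switch on in liver, had 5 of 10 tested genes that rose and 1 that fell (median log2 fold change 0.44). ACLY, which makes cytosolic acetyl-CoA, was at 33.6, 29.8 and 33.2 FPKM in Control against 65.2, 59.4 and 61.8 FPKM in OX-LDL (log2 fold change 0.98, SE 0.08, adjusted p = 0.00157 in edgeR's test). FASN, fatty acid synthase, rose from 6.79 to 15.4 FPKM (1.21, adjusted p = 0.00878), and SCD, stearoyl-CoA desaturase, from 119 to 245 FPKM (1.07, adjusted p = 0.0134). These enzymes are also known targets of the sterol regulatory element-binding proteins. ME1, malic enzyme, rose from 25.2 to 33.1 FPKM (0.42, adjusted p = 0.0263). The called gene that fell was KLF10, from 24.2 to 15.9 FPKM (-0.57, adjusted p = 0.0454 in edgeR's test). ACLY and FASN were called in all 6 fits without 1 library, and SCD was lost without Control library 2 (adjusted p = 0.0582 in edgeR's test). ME1 and KLF10 were called only without Control library 1 or OX-LDL library 2. PKLR, the classic ChREBP target of liver, had 0 counts in every library.

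AMPK, a kinase that promotes TXNIP degradation, had 0 of 7 tested subunit and LKB1 genes called, with a median log2 fold change of -0.21. The groups did not overlap for 6 of the 7 (background 37.2%), with PRKAB1 higher and the others lower in OX-LDL. The largest change was in PRKAG2, from 4.82 to 2.87 FPKM (log2 fold change -0.72, adjusted p = 0.0563 in edgeR's test). PRKAA1, a catalytic subunit, was at 14.4 FPKM in Control against 12.2 FPKM in OX-LDL (log2 fold change -0.21, adjusted p = 0.113 in edgeR's test). TXNIP is also known to bind the NLRP3 inflammasome, of which 1 of 4 tested genes rose (25.0% called, against 15.3% of all genes tested). IL18, a cytokine matured by it, went from 6.03 to 12.9 FPKM (1.13, adjusted p = 0.0146), while NLRP3 had 8 counts in OX-LDL library 1 and 0 in the other libraries. CASP1, also of this list, had 0 counts in every library. IL1B had 24, 34 and 12 counts in Control against 0, 16 and 0 in OX-LDL, under the minimum level for testing. TXNIP was first described as a gene induced by vitamin D, and of 4 genes of that response CYP24A1, the vitamin D hydroxylase, rose from 2.07 to 10.4 FPKM (2.35, adjusted p = 0.00523), while VDR, the receptor, was at 1.60 and 1.22 FPKM (-0.36, adjusted p = 0.275). IL18 and CYP24A1 were called in all 6 fits without 1 library.

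Stress regulators linked to TXNIP included 1 of 6 genes that rose and 3 that fell (median log2 fold change -0.61). DDIT3, which encodes the stress factor CHOP, was at 55.9, 123 and 76.6 FPKM in Control against 11.9, 17.6 and 10.4 FPKM in OX-LDL (log2 fold change -2.64, SE 0.33, adjusted p = 0.00515 in edgeR's test). ATF4, a factor upstream of DDIT3, fell from 147 to 95.8 FPKM (-0.59, adjusted p = 0.00526), and DDIT4, an inhibitor of mTORC1, from 96.2 to 47.0 FPKM (-1.001, adjusted p = 0.0149). ATF5 rose from 2.46 to 5.20 FPKM (1.11, adjusted p = 0.0184). DDIT3 and ATF4 were called in all 6 fits without 1 library, DDIT4 was lost without Control library 2 or OX-LDL library 3 (adjusted p at most 0.0611), and ATF5 was called only without Control library 3 or OX-LDL library 2. ERN1, which encodes the stress sensor IRE1 alpha, was at 0.745 and 0.470 FPKM (-0.63, adjusted p = 0.0586) and was not called. Its groups did not overlap, as was so for 37.2% of all genes tested.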

How the data were processed

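Poly(A) RNA of 6 HK-2 libraries was sequenced as paired ends from a dUTP kit. The authors deposited 1 table of 58825 genes giving each library an estimated count and FPKM, the latter scaled by the authors for transcript length and library size, with a count of 0 listed at 0.0001 FPKM. Counts as deposited were whole and entered the tests unrounded. The submitters' processing notes name cutadapt 1.9, HISAT2 2.0.4, StringTie 1.3.4d, edgeR, DESeq2 and GRCh38, and the strand setting of counting is not given in the sources used here. Counts of 4, 8 and 12 were 3.26, 2.95 and 2.13 times as common as their neighbours, which was read as about 4 counts per read pair. No pair of libraries of a group was alike within sampling noise, with a chi-square of at least 13.1 per gene.

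Coordinates are those of the table, which equal those of GENCODE release 29 for 81.2% of 58552 common identifiers. Promoters were taken from RefSeq on GRCh38.p14.

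The test was edgeR 4.0.16 (R 4.3.3) with TMM, glmQLFit and glmQLFTest on the group alone, over 19510 genes that averaged 0.1 FPKM or more. Alternatives were DESeq2 1.42.0, limma 3.58.1 with trend on log2(FPKM + 0.1) or log2(FPKM + 1), RLE size factors, a minimum of 1 FPKM or none, counts divided by 4, a replicate block and leaving out each library. The fit was tested on simulated data. Members and lists were chosen with earlier results of these data known. Genes named were the 6 members, at most 4 called genes of each list by smallest p plus those needed to describe it, the 3 genes most like TXNIP and ARRDC4, and neighbours within 100 kb.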

Additional observations from a re-analysis of the deposited data

How the results depend on the processing

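TXNIP, ARRDC4, ARRDC3 and MLX kept their direction under all 14 alternatives, and MLXIP under 13. The number of members called was 3 as reported, 4 with DESeq2, 1 with no minimum level and 0 to 2 without 1 library (0 without Control library 2). With no minimum level, ARRDC3 had a log2 fold change of 0.64 (adjusted p = 0.0501 in edgeR's test) and MLX -1.08 (adjusted p = 0.0504). DESeq2 gave TXNIP a log2 fold change of 0.49 (adjusted p = 0.0329), and it called 4430 genes in all, against 2991 as reported. Same-numbered libraries did not deviate together (correlations of -0.041, -0.0031 and 0.036, against -0.054 to 0.056 for other pairs). These values cannot settle whether libraries of equal number were handled together, and the labels do not say. A replicate block in edgeR gave 1636 called genes in place of 2991, and 1 member, with log2 fold changes of 0.51 for TXNIP (adjusted p = 0.0497), 0.85 for ARRDC4 (0.0575), 0.67 for ARRDC3 (0.0918) and -1.15 for MLX (0.0524). Without 1 library, edgeR's test called 1161 to 2943 genes in all (over 1.5 times fewer than reported in every such fit but the one without OX-LDL library 2) and 13 to 27 of the network lists, and log2 fold changes ran from 0.35 to 0.67 for TXNIP (adjusted p = 0.0335 to 0.257), 0.72 to 0.97 for ARRDC4 (0.0308 to 0.0937), 0.54 to 0.84 for ARRDC3 (0.0150 to 0.129), -1.35 to -0.80 for MLX (0.0380 to 0.128) and from -0.038 to 0.091 for MLXIP. These fits have fewer samples, and in each the group with 2 libraries sets part of the spread. The 29 called list genes kept their sign under every alternative. MLXIPL had no value to compare, since it did not pass the minimum level. With no minimum, its log2 fold change was 0.15 (SE 2.06). Depth limits MLXIPL, and the spread between 3 libraries limits the other members.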
